A study of Mus musculus with 12 samples.

Results

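Eya1, Plcxd2, St8sia6, Cables1, Daam1 and Gpr171 are 6 genes, of 37991 in the count table, whose RNA was lower in Runx1 c-k/o B cells. They were selected on their read counts, which were strongly lower in the c-k/o cells at rest or at 3 h. The choice therefore used both genotype comparisons, and these values are given for the 6 genes as a description without a test. No numeric threshold defined the choice. RNA from splenic resting B cells of mice aged 8 weeks, purified by a negative selection that removes other cells and activated CD43+ B cells, was sequenced in 4 groups of 3 samples each. All mice carried the CD23-iCre transgene, in which the Cd23 promoter first drives Cre at the transitional B cell stage. The Cre-only controls had no Runx1 deletion, whereas in the Runx1 c-k/o (CD23iCre/Runx1 ck/o) mice Cre removed exon 4 of the floxed Runx1 gene. For each genotype the cells were taken at rest (0 h) or 3 h into activation by anti-IgM + IL-4. The 12 samples held 14442251 to 23641552 counts each.

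RUNX1 is a transcription factor that recognizes DNA through its runt domain, and it can raise or lower the transcription of its targets. It is required for the earliest steps of blood formation and for B cell development, and it is still expressed in mature B cells. Anti-IgM crosslinks the B cell receptor and, with IL-4, moves a resting B cell out of quiescence. The 6 genes encode proteins of unlike kinds. Eya1 is a transcriptional coactivator and phosphatase that works with homeobox factors of the sine oculis family, and Plcxd2 is a protein with the X domain of phosphatidylinositol-specific phospholipase C. St8sia6 is an α2,8-sialyltransferase of the Golgi, and Cables1 is an adaptor that links cyclin-dependent kinases to the kinases that phosphorylate them. Daam1 is a formin that assembles actin filaments downstream of Dishevelled, and Gpr171 is a G protein-coupled receptor of the P2Y-like group.

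RefSeq promoter windows matched 3 of the 6 genes: Plcxd2, St8sia6 and Daam1, the last with a pair of start sites. The 250 bases before the start of Plcxd2 and before the upstream start of Daam1 are shown because these windows were searched for the RUNX core, and the letters found there were those of other common promoter elements. The Plcxd2 window is chr16:46010527-46010776 on the minus strand and the Daam1 window is chr12:72931805-72932054 on the plus strand, both in mm9. Capitals mark the GC box (GGGCGG) and the CCAAT box (CCAAT), each searched on both strands.
Plcxd2: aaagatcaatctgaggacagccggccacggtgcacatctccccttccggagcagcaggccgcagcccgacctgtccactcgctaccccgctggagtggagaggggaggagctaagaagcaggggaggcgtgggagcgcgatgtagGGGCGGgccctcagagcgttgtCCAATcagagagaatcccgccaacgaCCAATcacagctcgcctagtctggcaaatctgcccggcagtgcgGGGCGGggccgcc
Daam1: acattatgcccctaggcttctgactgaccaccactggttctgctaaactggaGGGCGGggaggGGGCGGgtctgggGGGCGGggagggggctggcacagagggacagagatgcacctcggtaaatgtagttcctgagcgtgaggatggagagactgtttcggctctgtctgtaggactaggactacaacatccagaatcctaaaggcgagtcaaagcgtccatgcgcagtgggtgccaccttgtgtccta

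The St8sia6 window lies wholly within exons of the mm9 annotation, whose start for this gene is further upstream, so it is not printed and is not upstream sequence by that annotation. The RUNX core (TGTGGT or TGCGGT, both strands) was in none of the 4 windows of these 3 genes, and 18.6% of the 32851 promoter windows in the table held it. These letters are therefore absent from the short windows searched, which says nothing of binding by RUNX1. The Plcxd2 window held 2 CCAAT boxes and 2 GC boxes, and the upstream Daam1 window held 3 GC boxes. A CCAAT box was in 33.8% and a GC box in 32.7% of all windows. The downstream Daam1 window held 1 CCAAT box, and the St8sia6 window held none of the 3 motifs.

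Resting Runx1 c-k/o replicate 2 and 3-h Runx1 c-k/o replicate 1 stood apart from the other samples of their groups. Chi-square per gene between replicates, which is near 1 for counting error alone, was 30.6 to 37.4 for the first and 60.6 to 84.7 for the second. It was 3.31 to 5.95 between Cre-only replicates. In both libraries genes with at least 6 kb of exon were low against genes under 2 kb, by a median of -0.44 and -0.69 on the log2 scale relative to the other replicates of the group. The 3-h c-k/o replicates 2 and 3 also differed from each other, with a chi-square per gene of 13.95 and a length deviation of 0.49 for replicate 3, and 617 rather than 375 genes were called at 3 h without replicate 3. Of the 6 genes, Plcxd2, St8sia6 and Daam1 are in the longer class, with 7140, 7409 and 6004 exon bases. Whether the length pattern has a part in their lower levels was not tested. Values of the 6 genes that moved without the first pair of libraries are given both ways. The labelled cell type was borne out by the B cell markers, since Cd79a was at 1873 to 2406 normalized CPM (reads of a gene relative to its library's TMM-adjusted total) in the resting samples. Of the 10 T cell markers, Cd3e, Cd3d, Cd3g, Cd8a and Themis stayed under 1 normalized CPM in every sample, and Cd3e reached 0.410 and Cd3g 0.819. The others were higher, with Cd4 up to 3.47, Cd28 up to 2.31, Lat up to 2.32, Cd5 up to 10.8 and Il7r up to 110 normalized CPM, the last after activation. The 8 myeloid markers summed to 251 to 305 normalized CPM in resting Cre-only and 216 to 424 in resting c-k/o samples. Most of this was Csf1r, at 164 to 206 and 139 to 283. At 3 h the myeloid sums were 17.7 to 25.4 and 19.3 to 46.9, so resting and 3-h samples differed in this signal. Runx1 itself ranged over 81.8 to 86.7 normalized CPM at rest in Cre-only and 95.7 to 103 in c-k/o cells. At 3 h it was at 34.9 to 38.5 and 47.3 to 74.5. Counts over the whole gene include the exons that remain, so they do not check the deletion of exon 4.

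RNA of all 6 genes was lower in the c-k/o cells at both times, and in each case every c-k/o sample lay below every Cre-only sample. Such a separation at both times was found for 4.20% of the 13538 genes tested. The RNA was reduced rather than lost. The c-k/o mean ranged from 17.1% of the Cre-only mean for resting Plcxd2 to 52.6% for resting Gpr171, and from 13.3% for Cables1 to 49.9% for Plcxd2 at 3 h. In bulk RNA, fewer cells that express a gene and less RNA per cell cannot be told apart. Of the 6 genes, 5 were among the 103 genes called lower at rest (0.761% of those tested) and all 6 among the 176 called lower at 3 h (1.30%), by edgeR at an adjusted p under 0.05. These counts follow from how the genes were chosen. Without both libraries that stood apart, 311 genes were called lower at rest and 349 at 3 h, again with 5 and 6 of the 6 genes among them. Leaving out any 1 resting sample other than c-k/o replicate 2 left 4 of the 6 genes called at rest, without Daam1. The refits use samples on which the genes were chosen, so their calls are no independent support.

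**Figure D1:**
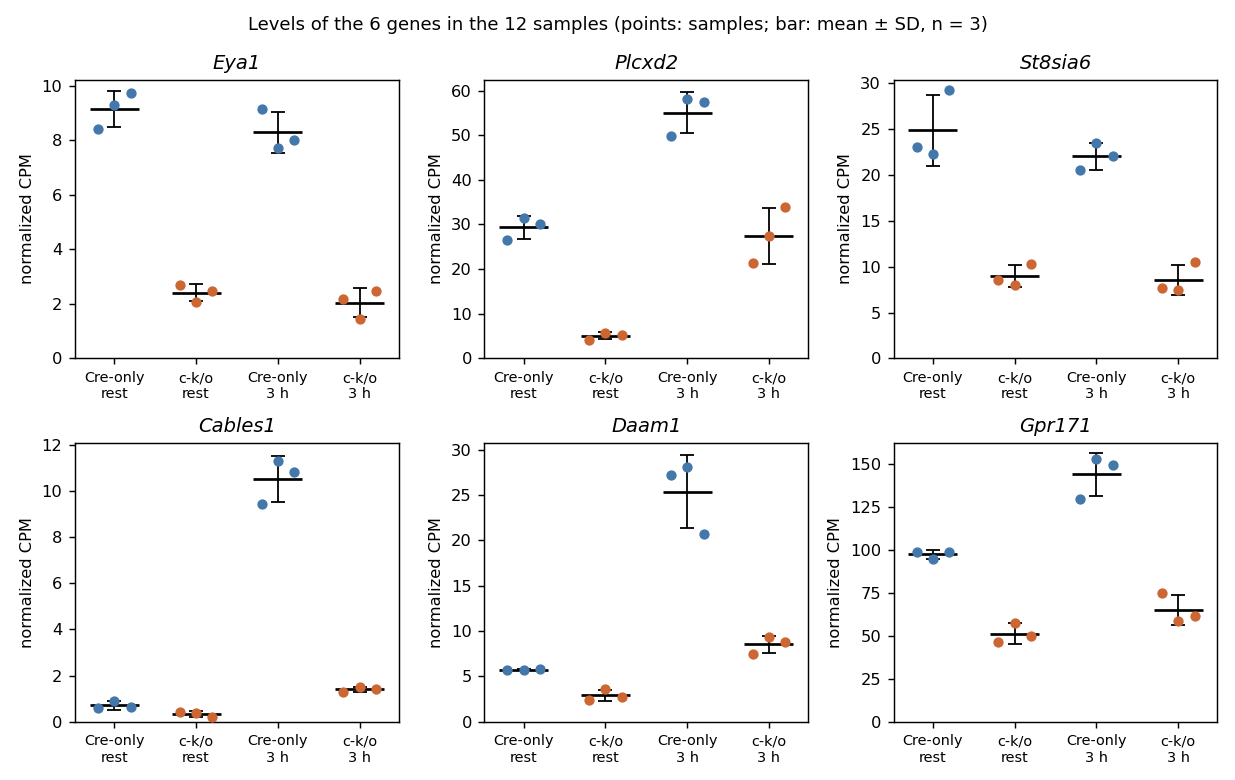
Normalized CPM (linear axis from 0) of each of the 6 genes in the 12 samples, with points for samples and a bar for the mean ± SD of 3 samples. In all panels the c-k/o samples lie below the Cre-only samples of the same time, and the spacing differs by gene: Eya1 and St8sia6 look alike at both times, whereas the c-k/o samples for Plcxd2 at 3 h reach 21.3 to 33.8 normalized CPM.

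Eya1 and St8sia6 were lower by about the same factor at both times. The 3 resting Cre-only samples held 8.43, 9.28 and 9.73 normalized CPM of Eya1, and the resting c-k/o samples 2.69, 2.07 and 2.46. After 3 h it was at 9.15, 7.71 and 8.03 in Cre-only and at 2.19, 1.44 and 2.47 in c-k/o cells. The lowest Cre-only sample was thus 3.13 times the highest c-k/o sample at rest and 3.12 times at 3 h. The log2 fold change of genotype (c-k/o over Cre-only) was -1.92 (SE 0.182) at rest and -2.02 (SE 0.186) at 3 h, which left 26.3% and 24.5% of the Cre-only level.

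St8sia6, which links sialic acid to glycans that already end in it, had 23.0, 22.3 and 29.3 normalized CPM at rest in the Cre-only samples and 8.49, 8.01 and 10.3 in the c-k/o samples. After 3 h the Cre-only samples were at 20.6, 23.5 and 22.04 and the c-k/o samples at 7.66, 7.48 and 10.5. No sample of either genotype came near the other, with a gap of 2.16 times at rest and 1.96 times at 3 h. Its log2 fold change of genotype was -1.48 (SE 0.158) at rest and -1.36 (SE 0.159) at 3 h.

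Gpr171 was the most abundant of the 6 genes and showed the smallest difference at rest. Its levels at rest were 98.9, 94.4 and 98.8 normalized CPM in the Cre-only samples and 46.2, 57.7 and 49.97 in the c-k/o samples. After 3 h it was at 130, 153 and 149 in Cre-only and at 74.8, 58.4 and 61.3 in c-k/o cells. The highest c-k/o sample at each time was the library that stood apart. Its log2 fold change of genotype was -0.93 (SE 0.114) at rest and -1.15 (SE 0.114) at 3 h, and without both of those libraries the c-k/o mean was 49.4% of Cre-only at rest and 41.6% at 3 h. Gpr171 is also expressed in T cells. The summed T cell list was at 9.11 to 17.2 normalized CPM in resting Cre-only and 12.1 to 22.6 in resting c-k/o cells, with Cd3e, Cd3d and Cd3g each under 1. At 3 h the sums were 102 to 125 and 87.9 to 117, of which Il7r made up most. Whether T cells in the samples have a part in the Gpr171 difference was not tested.

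Plcxd2 had the largest difference of the 6 genes at rest and the smallest at 3 h. Resting Cre-only cells held 26.6, 31.5 and 30.0 normalized CPM, against 4.16, 5.62 and 5.31 in resting c-k/o cells. By 3 h the Cre-only samples had 49.8, 58.1 and 57.3 and the c-k/o samples 21.3, 27.4 and 33.8. The lowest Cre-only sample was 4.72 times the highest c-k/o sample at rest, but 1.47 times at 3 h. The log2 fold change of genotype went from -2.55 (SE 0.177) at rest to -1.0 (SE 0.155) at 3 h, a change of 1.55 (SE 0.233), or 1.81 without both libraries that stood apart. Without those libraries the 3-h value was -0.82, and the 3-h c-k/o mean was 55.5% of Cre-only. In c-k/o cells at 3 h the mean was 93.6% of that in resting Cre-only cells.

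Cables1 showed the reverse order, with a small difference between low levels at rest and the largest difference of the 6 genes at 3 h. At rest it had 12, 16 and 10 counts in the Cre-only samples and 7, 6 and 3 in the c-k/o samples. These are 0.703 ± 0.181 and 0.332 ± 0.116 normalized CPM (SD, n = 3), and 1 c-k/o sample did not exceed the floor of 3 counts. At 3 h Cables1 stood at 9.41, 11.3 and 10.8 normalized CPM in Cre-only cells, against 1.29, 1.51 and 1.41 in c-k/o cells. The gap between the genotypes was then 6.23 times. Its log2 fold change of genotype was -1.04 (SE 0.319) at rest and -2.90 (SE 0.194) at 3 h.

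Daam1 levels at rest were 5.69, 5.75 and 5.83 normalized CPM in the Cre-only samples and 2.40, 3.62 and 2.72 in the c-k/o samples. At 3 h it was at 27.2, 28.1 and 20.7 in Cre-only and at 7.47, 9.32 and 8.77 in c-k/o cells. The genotypes lay further apart at 3 h (2.22 times between the nearest samples) than at rest (1.57 times). For Daam1 the log2 fold change of genotype was -0.98 (SE 0.181) at rest and -1.57 (SE 0.154) at 3 h. This change of -0.59 (SE 0.239) became -0.30 without both libraries that stood apart, of which the resting one held the highest Daam1 level of its group and the 3-h one the lowest.

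**Figure D2:**
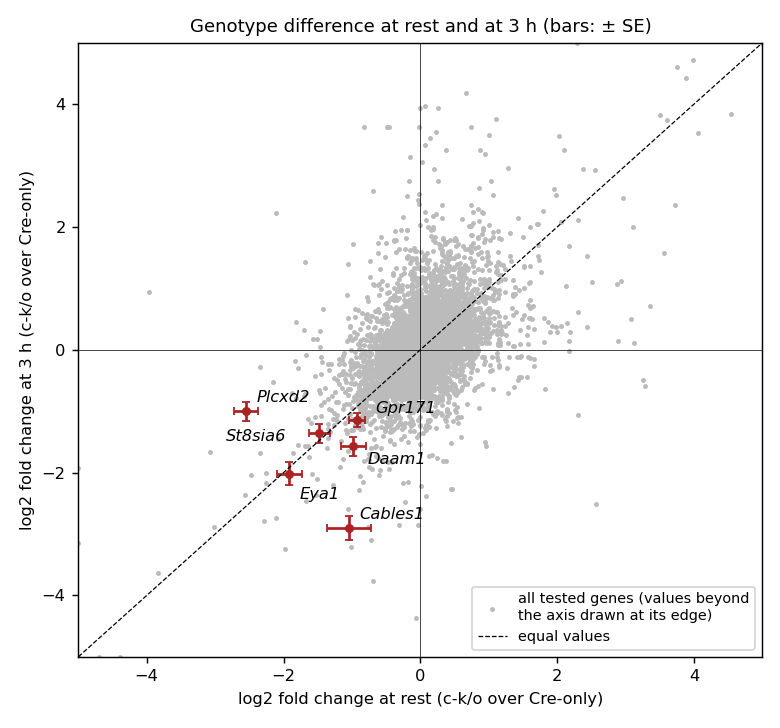
The log2 fold change of genotype (c-k/o over Cre-only) at rest on the horizontal axis and at 3 h on the vertical axis, for the 6 genes (red, bars ± SE) and all 13538 tested genes (gray). Eya1 and St8sia6 lie on the line of equal values, Gpr171 close to it, Plcxd2 above it and Cables1 and Daam1 below it.

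The falls were not the deepest in the data. Of the genes called lower at rest, 8 had a larger fall than Plcxd2, and of those called lower at 3 h, 4 had a larger fall than Cables1. Gpr171, with the smallest fall at rest, had 49 called genes beyond it. Over all tested genes the median log2 fold change of genotype was 0.03 at rest and 0.01 at 3 h.

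Per kb of exon, Gpr171 had the highest level in all 4 groups. In resting Cre-only cells the order of mean normalized CPM per kb was Gpr171 (43.8), Plcxd2 (4.11), St8sia6 (3.35), Eya1 (2.09), Daam1 (0.958) and Cables1 (0.207). Only Plcxd2 and St8sia6 overlapped among neighbors in this order. In resting c-k/o cells St8sia6 (1.21) came before Plcxd2 (0.705), which overlapped with Eya1 (0.550), and Eya1 overlapped with Daam1 (0.485). At 3 h Cables1 had reached 3.09 in Cre-only cells, where it overlapped with St8sia6 (2.98), but 0.413 in c-k/o cells, where it was the lowest of the 6 genes and overlapped with Eya1 (0.466).

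Activation averaged over the genotypes was tested, because it is independent of both comparisons used to choose the genes if the groups have equal spread. The c-k/o groups, with the libraries that stood apart, varied more than the Cre-only groups. Full independence from the choice is therefore not assured. Changes on activation are relative to the TMM-adjusted total of each library and do not measure RNA per cell. Cables1, Daam1, Plcxd2 and Gpr171 rose with anti-IgM + IL-4, and Eya1 and St8sia6 did not pass the test. The increase in these 4 of 6 genes stands against 41.7% of all tested genes called higher and 82.2% called in either direction. Cables1 rose by a log2 fold change of 2.97 (SE 0.177, adjusted p = 8.66e-09, edgeR quasi-likelihood test), with 3 of 3 activated samples above all resting samples in each genotype. Daam1 rose by 1.84 (SE 0.119, adjusted p = 1.82e-08) and Plcxd2 by 1.68 (SE 0.118, adjusted p = 3.77e-08), likewise without overlap in either genotype.

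Gpr171 rose by 0.45 (SE 0.0800, adjusted p = 0.000187), without overlap in either genotype but narrowly so in c-k/o cells. There the highest resting sample, a library that stood apart, was at 57.7 and the lowest 3-h sample at 58.4 normalized CPM. With 1 RUVs factor of unwanted variation in the model its value was 0.06 (adjusted p = 0.652), so that call was lost, and over the 20 alternatives the adjusted p ran from 4.67e-07 to that value. Eya1 had a log2 fold change of -0.19 (SE 0.131, adjusted p = 0.202), which passed the test only when 10 counts were required in every sample (-0.32, adjusted p = 0.0369, the other alternatives reaching 0.706). St8sia6 had -0.12 (SE 0.111, adjusted p = 0.344), and the sign turned with 1 RUVs factor (0.18, adjusted p = 0.514, within a range of 0.0577 to 0.715 over the alternatives).

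The size of the increase in each genotype is given as a description, because it is built from the same comparisons that chose the genes. Plcxd2 increased by 0.91 (SE 0.154) on the log2 scale in Cre-only and by 2.45 (SE 0.177) in c-k/o cells. In normalized CPM the increases were 25.7 and 22.5. They were thus alike on this relative scale, while the fold was larger from the lower resting level of the c-k/o cells. Cables1 increased by 3.89 (SE 0.211) in Cre-only cells and by 2.04 (SE 0.290) in c-k/o cells, or by 9.81 and 1.07 normalized CPM. For Daam1 the values were 2.14 (SE 0.159) and 1.55 (SE 0.178), or 19.6 and 5.61 normalized CPM, but without both libraries that stood apart the log2 values were nearer to each other, at 2.10 and 1.79. Gpr171 increased by 0.56 (SE 0.112) and 0.34 (SE 0.114), or by 46.6 and 13.6 normalized CPM, and its log2 values differed by -0.22 (SE 0.160). With 1 RUVs factor its log2 values were 0.18 in Cre-only and -0.06 in c-k/o cells.

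Set against resting Cre-only cells, the activated c-k/o cells held 199.6% of the Cables1 level, 148% of the Daam1 level and 93.6% of the Plcxd2 level. Gpr171 stayed at 66.6%, St8sia6 at 34.4% and Eya1 at 22.2%. For the last 3 genes every activated c-k/o sample lay below every resting Cre-only sample.

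**Figure D3:**
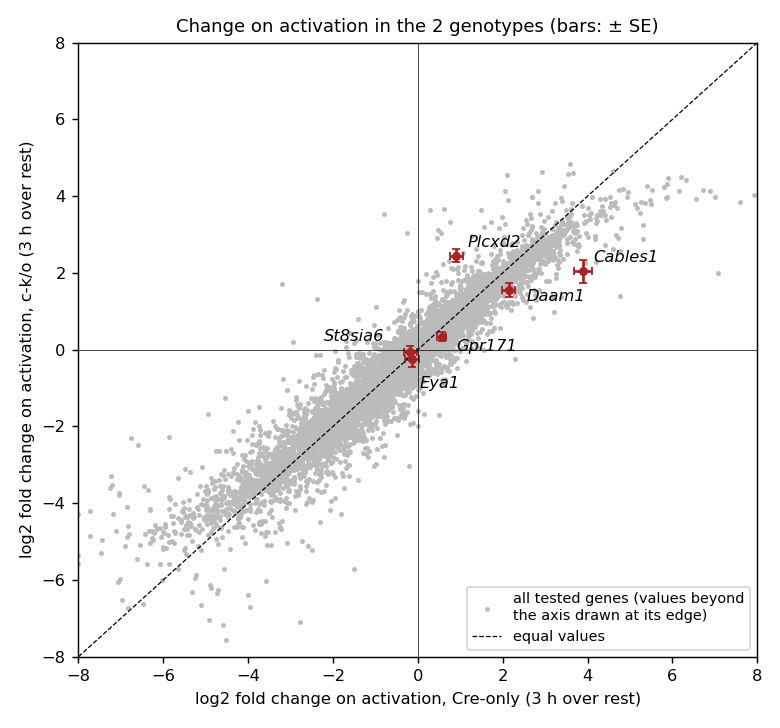
The log2 fold change on activation (3 h over rest) in Cre-only cells on the horizontal axis and in c-k/o cells on the vertical axis, for the 6 genes (red, bars ± SE) and all tested genes (gray). Plcxd2 lies above the line of equal values (0.91 and 2.45), Cables1 (3.89 and 2.04) and Daam1 (2.14 and 1.55, or 2.10 and 1.79 without both libraries that stood apart) lie below it, and Eya1 and St8sia6 lie near 0 on both axes.

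Of the 12 tested paralogs of the 6 genes, 0 were called between genotypes at either time by edgeR or DESeq2, and 1 at rest and 1 at 3 h had an unadjusted p under 0.05. By edgeR 1.49% and 2.77% of all tested genes were called at these times, and by DESeq2 2.79% and 5.24%. A count of 0 among 12 thus does not set the paralogs apart from other genes. An unadjusted p under 0.05 was found for 1496 of all 13538 tested genes at rest and for 2194 at 3 h. Eya3 averaged 55.3 ± 2.01 normalized CPM at rest in Cre-only and 51.7 ± 2.07 in c-k/o cells (SD, n = 3), with an adjusted p of 0.717 in edgeR. Per kb of exon Eya3 (9.80) was above Eya1 (2.09) in resting Cre-only cells, as were St8sia4 (22.8) above St8sia6 (3.35) and Cables2 (23.5) above Cables1 (0.207). The log2 fold change of genotype at rest was 0.13 for St8sia4, -0.13 for Cables2, 0.14 for Plcxd1 and -0.16 for Daam2, with adjusted p of 0.548 to 0.836 in edgeR. Plcxd1 and Daam2 were the less abundant members of their pairs, at 0.930 and 0.281 normalized CPM per kb.

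Around Gpr171, the related receptors P2ry10, P2ry12, P2ry13, P2ry14, Gpr34, Gpr174 and Gpr183 were tested. P2ry10, a receptor for lysophosphatidylserine, averaged 693 ± 12.5 normalized CPM at rest in Cre-only and 549 ± 47.8 in c-k/o cells (log2 fold change -0.34, edgeR adjusted p = 0.391). Gpr183, which guides B cells toward oxysterols, was at 215 ± 13.9 and 262 ± 34.5. On activation Gpr183 rose by 1.31 (adjusted p = 4.40e-08, edgeR), as Gpr171 did, whereas P2ry10 fell by 2.99 (adjusted p = 3.72e-10). Eya2, Eya4, Plcxd3, St8sia1, St8sia2, St8sia3 and St8sia5 had too few counts to be tested.

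**Figure D4:**
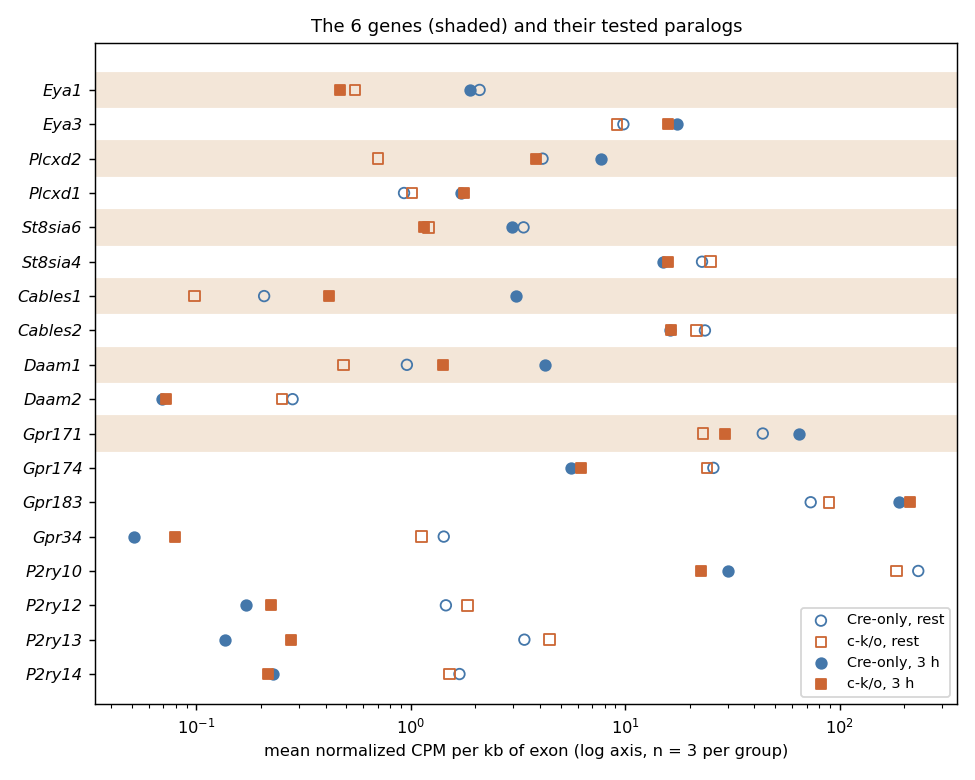
Mean normalized CPM per kb of exon (log axis) of the 6 genes (shaded rows) and their tested paralogs in the 4 groups of 3 samples; open symbols are resting and filled symbols 3-h samples, circles Cre-only and squares c-k/o. In the shaded rows the squares lie left of the circles of the same time, whereas for most paralogs the symbols of the genotypes lie close together.

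Of 114 genes in the families and pathways of the 6 genes, 77 were tested. At rest 2 (2.60%) and at 3 h 3 (3.90%) were called in the genotype comparisons, against 1.49% and 2.77% of all tested genes. The 3 genes were Six5, St6gal1 and St3gal5. Six5 is among the calls at each time, although it passed the filter on low counts only through the c-k/o samples. Its call is therefore no support, and the shares that include it in this fit do not set these lists apart from all tested genes. Without both libraries that stood apart, 4 related genes were called at rest and 11 at 3 h, Six5 again among them. In that setting 4.35% and 6.65% of all tested genes were called. Even against all 114 genes listed, the calls at 3 h were the larger share, with or without Six5. No set test was run.

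Among the sine oculis and Dachshund partners of EYA proteins, 1 of 3 tested genes, Six5, was called. This homeobox factor of the family that EYA proteins bind had 2, 1 and 2 counts in resting Cre-only cells and 25, 25 and 24 in resting c-k/o cells. At 3 h the counts were 1, 1 and 0 against 19, 17 and 19. The ratio of c-k/o to Cre-only was 16.9 at rest (exact 95% interval 6.94 to 53.7, counting error only) and 31.2 at 3 h (8.24 to 264). Both groups of Cre-only samples lay under the floor of 3 counts per library. Six5 passed the filter on low counts only through the c-k/o samples in which it was high. No p is therefore given for it, and its call is not used as support. Nor are the intervals, which pool the libraries of a group.

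Among 24 tested genes of the sialic acid pathway, 1 was lower at rest, and 1 was higher and 1 lower at 3 h. St6gal1, the α2,6-sialyltransferase that makes the ligand of CD22, had 347, 388 and 329 normalized CPM at rest in the Cre-only samples and 196, 176 and 208 in the c-k/o samples. It was lower by a log2 fold change of -0.88 (SE 0.135, adjusted p = 0.00643, edgeR) at rest. At 3 h the value was -0.84 (SE 0.137, adjusted p = 0.00541), but the adjusted p was 0.0682 when the 3-h samples were fitted alone, the highest of its alternatives, which went down to 4.15e-06. St6gal1 also fell on activation, by 1.80 (adjusted p = 4.28e-09), unlike St8sia6. St3gal5, the synthase of the ganglioside GM3, was higher in c-k/o cells at 3 h by 0.86 (SE 0.116, adjusted p = 0.00159). At rest its log2 fold change was 0.40 (adjusted p = 0.175). The median log2 fold change over the 24 genes was 0.02 at rest and 0.08 at 3 h.

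In the other 4 lists 0 genes were called by edgeR at either time in the fit of all 12 samples. Without both libraries that stood apart, edgeR called Inf2 at rest and Plcb2, Cdkn1a, Tdrd7, Trp53, Inf2 and Rock1 at 3 h. Of all tested genes 4.35% and 6.65% were called in that setting. Of all 13538 tested genes, 1496 had an unadjusted p under 0.05 at rest and 2194 at 3 h. DESeq2 called 2.79% of all tested genes at rest and 5.24% at 3 h. For phospholipase C, 2 of 9 tested genes had an unadjusted p under 0.05 at rest and 2 at 3 h, and DESeq2 called 0. For the partners of CABLES and the cyclin-dependent kinases, 0 of 9 had an unadjusted p under 0.05 at rest and 2 at 3 h, of which DESeq2 called 1. For formins and planar polarity, 2 of 23 had an unadjusted p under 0.05 at rest and 3 at 3 h, with 0 called by DESeq2. The P2Y-like receptors had 1 of 9 at rest and 2 at 3 h, also with 0 called by DESeq2. The median log2 fold change of the formin list was -0.18 at both times, whereas the other 3 medians lay between 0.01 and 0.18.

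In mm9 coordinates, Eya1 (ENSMUSG00000025932) lies at chr1:14159035-14300281 on the minus strand. Plcxd2 (ENSMUSG00000087141) lies at chr16:45959376-46010331 on the minus strand, 46.6 Mb from Runx1 on the same chromosome. St8sia6 (ENSMUSG00000003418) lies at chr2:13572647-13715435 on the minus strand, and Cables1 (ENSMUSG00000040957) at chr18:11997729-12104136 on the plus strand. Daam1 (ENSMUSG00000034574) lies at chr12:72932065-73093354 on the plus strand, and Gpr171 (ENSMUSG00000050075) at chr3:58900370-58905743 on the minus strand. The genes thus sit on 6 chromosomes. Gpr171 is the most compact, with 2225 exon bases within a span of 5374 bases, whereas Daam1 spreads 6004 exon bases over 161290 bases.

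The genes next to the 6 genes on their chromosomes were compared in the same way. Of 30 overlapping or neighboring genes, 14 were tested and 1 was called, at rest, where 1.49% of all tested genes were called. Abhd10, a hydrolase gene 216.3 kb from Plcxd2, averaged 14.5 ± 1.49 normalized CPM at rest in Cre-only and 10.1 ± 0.312 in c-k/o cells (log2 fold change -0.52, adjusted p = 0.0286, edgeR). The call was lost in 11 of 20 alternative settings (adjusted p 0.00301 to 0.168), and at 3 h the value was 0.26 (adjusted p = 0.238). Gm15638, a noncoding transcript, overlaps Plcxd2 on the opposite strand but shares no exon base with it. It was at 0.767 ± 0.261 and 0.126 ± 0.0642 normalized CPM at rest (log2 fold change -2.56, adjusted p = 0.177), and is named here after its values were seen. Med12l overlaps Gpr171 on the opposite strand without a shared exon base, and had a log2 fold change of -0.43 at rest (adjusted p = 0.494). Cables1 shares 118 exon bases with Gm6277 and 78 with Mir1901 on the opposite strand, so its reads there cannot be assigned if strand was not used. Gm6277 did not exceed 2 counts in any sample.

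Genes with the most similar pattern were ranked by the root mean square difference of log2 CPM over the 12 samples, after each gene was centered on its mean. These distances include the genotype differences that were used to choose the 6 genes. That a near gene is also lower in c-k/o cells, or that members of the 6 lie near each other, thus follows in part from the choice. The ranking is given for all 6 genes as a description. Eya1 and St8sia6 were near each other at 0.32, and St8sia6 was the nearest of all tested genes to Eya1. Both also had Abcb1a, a drug efflux transporter, and 4932415G12Rik among their 3 nearest genes. Abcb1a averaged 4.18 normalized CPM at rest in Cre-only and 1.12 in c-k/o cells, and 4932415G12Rik at 11.2 and 3.66. Among the 6 genes Eya1 and Cables1 were the farthest apart (1.57).

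Plcxd2 was nearest to Pdcd1lg2 (0.47), which encodes the PD-1 ligand PD-L2, followed by Sertad4 (0.57) and Fads2 (0.60). Pdcd1lg2 went from 10.001 to 22.4 normalized CPM in Cre-only and from 3.79 to 14.6 in c-k/o cells. Cables1 was nearest to Il1r1 (0.59), the interleukin-1 receptor, then Slc2a6 (0.60) and Gp49a (0.65). Il1r1 went from 0.419 to 10.1 normalized CPM in Cre-only cells and from 0.358 to 2.25 in c-k/o cells. Daam1 had Rundc3b (0.31), Pole2 (0.37) and Lphn2 (0.38) as its nearest genes, and Gpr171 had Rgs13 (0.22), Ptpn22 (0.25) and Tgfb3 (0.26). Rgs13, a regulator of G protein signaling in B cells, averaged 5.21 normalized CPM at rest in Cre-only and 2.23 in c-k/o cells.

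Markers of other cells and B cell subsets were set beside these values. Of the 6 marginal zone markers 0 were called by edgeR in either genotype comparison, with 3 at an unadjusted p under 0.05 and 1 called by DESeq2 at each time. Of all 13538 tested genes, 1496 at rest and 2194 at 3 h had an unadjusted p under 0.05. Calls covered 1.49% and 2.77% of them by edgeR at these times and 2.79% and 5.24% by DESeq2. Their summed level was 1189 to 1525 normalized CPM in resting Cre-only and 1675 to 1828 in resting c-k/o cells. Most of this sum was Cr2, at 818 to 1075 and 1225 to 1411. Cd9 was also higher without overlap (20.4 to 22.1 and 23.1 to 41.2), whereas Cd1d1, S1pr3, Dtx1 and Myof overlapped at rest. The study found more surface CD21, which Cr2 encodes, also on c-k/o B cells of lymph nodes, where marginal zone cells are absent. At 3 h the sums overlapped (2624 to 2880 and 2761 to 3525), but members went in opposite directions without overlap. Cr2 lay higher in c-k/o cells at 3 h (2271 to 2956 against 1913 to 2181 normalized CPM), as did Cd9, whereas Myof (112 to 200.2 against 252 to 299) and S1pr3 (133 to 145 against 161 to 184) lay lower, as did Dtx1. Of 3 plasma cell markers 1 was called lower at rest, where 0.761% of all tested genes were. It was Sdc1, at 17.4 to 18.8 in Cre-only against 5.97 to 8.98 normalized CPM in c-k/o cells. The summed erythroid markers were at 36.1 to 253 in resting Cre-only and 246 to 410 in resting c-k/o samples. Whether these markers have a part in the lower levels of the 6 genes was not tested.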

How the data were processed

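RNA was measured by poly(A)-selected, stranded, paired-end sequencing in 12 samples, and the authors deposited raw read counts per gene without normalization. Per the labels and the study's methods, purified B cells received ERCC spike-in RNA. The spike-in was not used for scaling here. According to the submitters' processing notes, CASAVA 1.8.4, TopHat2 2.0.11 and featureCounts were used with mm9. The methods give Ensembl annotation. The strand setting and the handling of multiply aligned reads are not given in the sources used here. The study calls the replicates biological, but the labels tie none to an animal, so p-values measure only the spread between these samples, which may be partly technical.

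Python 3.11.15 with pandas 2.3.3 read the counts, and positions came from GENCODE annotation of mm9. The filterByExpr function of edgeR 4.0.16 (minimum count 10) kept 13538 genes. Libraries were scaled by TMM, and all 12 samples were fitted together by robust quasi-likelihood in edgeR (R 4.3.3), with the 4 groups as terms. Adjusted p-values are Benjamini-Hochberg values over all tested genes, with a threshold of 0.05. Log2 CPM for the comparison of patterns used a prior count of 2. The floor of 3 counts was 0.127 to 0.208 CPM, and it covers counting error only. The models were tested on simulated data. The simulation gave a gene the same spread in all groups and held no libraries that stand apart, so it does not cover them.

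The members and lists were chosen with earlier results of these data known. Named were the 6 genes, their paralogs, related or neighboring genes with an adjusted p under 0.05 between genotypes (at most 4 per list), and the 3 genes nearest in pattern to each. The CCAAT and GC boxes were chosen after the data were examined. Alternatives were DESeq2's size factors, DESeq2 1.42.0's Wald test, no filter, 10 counts in every sample, 1 RUVs factor, replicate blocks, only the 2 groups compared and each sample left out. Leaving out both libraries that stood apart was added after the data were examined.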

Additional observations from a re-analysis of the deposited data

How the results depend on the processing

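The genotype differences of the 6 genes kept their direction at both times under every alternative in which they could be computed. The genes were chosen on these same samples, so this too is no independent support. Of 737 values of the 6 genes under alternatives, 13 moved by at least 1 SD between replicates (of log2 CPM, pooled over the groups compared, or of the level). With 1 RUVs factor the change of St8sia6 on activation reversed (0.18), and that of Gpr171 in c-k/o cells turned to -0.06. Counts of called genes moved more. At rest 202 genes were called, against 378 with DESeq2's Wald test, 511 with 1 RUVs factor and 598 without both libraries that stood apart, and 81 to 386 with single samples left out. At 3 h 375 were called, against 709, 1012 and 914 in the same settings, 158 with only the 2 groups compared and 180 to 617 with single samples left out. The change of the genotype difference between the times was called for 11 genes, against 83 with DESeq2, 146 with 1 RUVs factor, 187 without both libraries and 4 to 31 with single samples left out. Of the related genes 2 were called at rest, against 1 with 10 counts required in every sample, 4 with 1 RUVs factor and 4 without both libraries (2 to 2 with single samples left out). At 3 h 3 were called, against 6 with DESeq2, 10 with 1 RUVs factor, 11 without both libraries and 3 to 6 with single samples left out. Six5 is in each of these counts of related genes in which it could be tested. Activation was called for 11134 genes, and for 10989 to 11481 with single samples left out. The cause of these shifts was not tested.

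Same-numbered resting and 3-h samples deviated together in Cre-only cells (correlations 0.275, 0.176 and 0.144) but not in c-k/o cells (-0.254, -0.264 and 0.254), so the numbers were not taken as pairs. In c-k/o cells replicate 2 at rest correlated best with replicate 1 at 3 h (0.477). With the replicate block 140 genes were called at rest, 275 at 3 h and 11044 on activation. With a block within each genotype the change of the genotype difference was called for 4 genes. No call on the 6 genes changed with either block, and the call of Abhd10 was lost (adjusted p = 0.0633, edgeR). Cables1 at rest, with 3 to 16 counts a sample, is limited by depth.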
